A study of Mus musculus with 9 samples.

Results

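The endothelin genes examined here are the ligands Edn1, Edn2 and Edn3, the receptors Ednra and Ednrb, and Ece1, the enzyme that cuts the ligand precursors to their active form. Every probe set that the platform annotation gives to 1 of these symbols alone was taken. That rule found 12 probe sets for 5 of the 6 genes, out of 45037 probe sets tested, with 1 for Edn1, 1 for Edn2, 4 for Edn3, 3 for Ednrb and 3 for Ece1. The annotation used lists no probe set under Ednra, and that receptor was not analysed here.

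Terminal colon of mouse embryos was profiled on 9 Affymetrix MOE430 version 2 arrays, 3 per genotype. Ednrb null embryos carried the lacZ allele on both chromosomes, written EdnrB(lacZ/lacZ). Ednrb NCC null embryos were labelled Ednrb-FLEX(NCC-/-) and described as mutant in NCC cells, and the labels do not name the driver of that deletion. Wild type embryos were the common controls of both mutants. All samples were labelled embryonic day 14, while the design text of the series gives 14.5 days. The labels give no strain or litter and do not say whether an array holds 1 embryo or a pool, so p-values measure only how far these samples differ from each other, which may be technical. The values are RMA intensities, given here on the log2 scale, where a difference of 1 is a 2-fold change.

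Endothelins are short peptides cut from larger precursors, first by furin-type proteases and then by Ece1. Edn1 and Edn2 act on both receptors, whereas Edn3 prefers Ednrb, a G protein-coupled receptor. In the developing gut the mesenchyme makes Edn3, and the enteric neural crest cells that colonise it carry Ednrb. Loss of either leaves the distal colon of mice without enteric ganglia, and mutations of both genes occur in human Hirschsprung disease. Ednrb is also known from vascular endothelium and from other non-crest cells.

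The promoter windows of the ligand and the receptor whose probe sets differed between genotypes are shown, as the 300 bases around a RefSeq transcript start in build GRCm38.p6, 5′ to 3′ on the gene's strand. They were searched on both strands for an E box (CANNTG), a TATA box (TATAAA), a GC box (GGGCGG) and the SOX motifs AACAAT and ACAAAG. The matches, none overlapping another, are in capitals. The Ednrb window lies at chr14:103843652-103843951 on the minus strand and the Edn3 window at chr2:174760369-174760668 on the plus strand.
Ednrb: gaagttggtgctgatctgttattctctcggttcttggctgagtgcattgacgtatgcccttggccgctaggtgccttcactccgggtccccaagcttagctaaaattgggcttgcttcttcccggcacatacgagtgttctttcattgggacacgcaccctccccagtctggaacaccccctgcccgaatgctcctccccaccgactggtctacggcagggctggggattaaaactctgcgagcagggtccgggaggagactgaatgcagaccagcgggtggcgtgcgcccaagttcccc
Edn3: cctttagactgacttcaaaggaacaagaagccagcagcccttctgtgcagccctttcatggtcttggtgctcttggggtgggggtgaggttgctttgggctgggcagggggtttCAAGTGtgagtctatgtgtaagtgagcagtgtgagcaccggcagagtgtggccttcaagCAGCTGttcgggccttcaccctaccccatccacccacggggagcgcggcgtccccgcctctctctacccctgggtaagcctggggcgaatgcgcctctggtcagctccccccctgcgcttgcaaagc
The Edn3 window held 2 E boxes, a motif present in 72.3% of 32851 promoter windows of this length, and no other searched motif. The Ednrb window held none of the 5, of which a TATA box was present in 13.6% of all windows, a GC box in 35.7% and the SOX motifs in 10.7% and 18.7%. GC content was 58.7% for Ednrb and 61.0% for Edn3, against a median of 52.7%. These matches describe only the letters of these windows.

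Array medians lay between 111 and 115 in intensity, and arrays of a group correlated at r = 0.9932 to 0.9967 across probe sets, which are not independent replicates, against 0.9881 to 0.9928 between groups. Markers of colon tissue were bright: log2 Hoxd13, a posterior gut transcription factor, was 11.90 to 12.46, the epithelial cadherin Cdh1 11.18 to 12.03 and the smooth muscle actin Acta2 14.14 to 14.57 over all arrays. Some markers of the enteric neural crest fell in both mutants. Ret, the GDNF receptor of these cells, averaged 6.36 ± 0.70 in Ednrb null colon and 6.28 ± 0.44 in Ednrb NCC null colon, against 9.59 ± 0.58 in wild type (log2, SD, n = 3 each). In Ednrb null 7 of the 11 measured crest markers fell, where 2.52% of all probe sets were called lower. In Ednrb NCC null 3 of 11 fell, where 1.51% of all probe sets were called lower. None rose, although 2 of the 8 that did not pass in Ednrb NCC null lay above wild type. In such tissue RNA, fewer cells of a type and less RNA per cell cannot be told apart. The log2 ratio of the 3′ to the 5′ control probe set of Actb, a measure of RNA integrity, was 0.80 to 0.90 in Ednrb null, 1.03 to 1.40 in Ednrb NCC null and 1.08 to 1.32 in wild type arrays. All Ednrb null arrays lay below the others, so in comparisons of Ednrb null this ratio cannot be told apart from genotype.

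**Figure D1:**
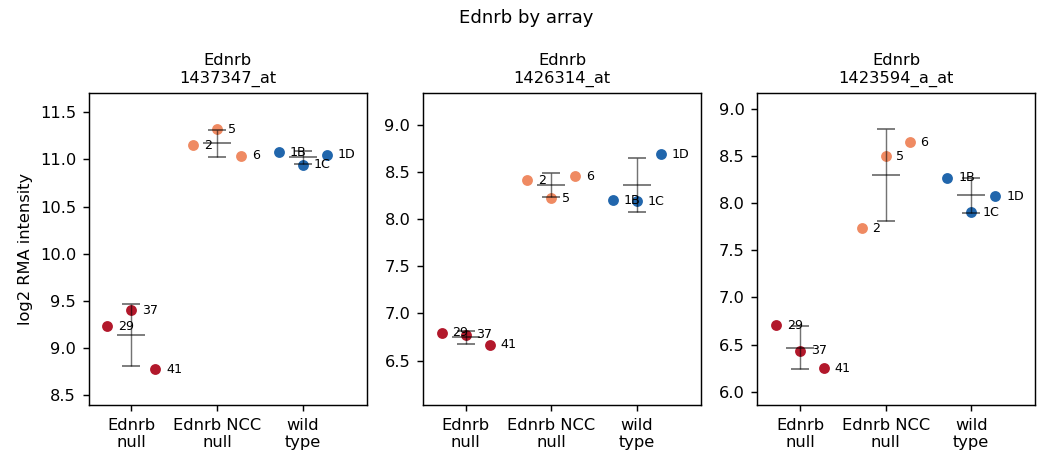
Log2 RMA intensity of the 3 Ednrb probe sets on each of 9 arrays (points, numbered as in the sample titles), with the mean and SD of each genotype as bars. The Ednrb null arrays lie below every other array in all panels, and the ranges of the Ednrb NCC null and wild type arrays overlap.

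Ednrb, the targeted receptor, fell in Ednrb null colon on all 3 of its probe sets and passed no test in Ednrb NCC null colon. The brightest, 1437347_at, read 9.23, 9.40 and 8.77 in Ednrb null arrays 29, 37 and 41. It read 11.15, 11.32 and 11.04 in Ednrb NCC null arrays 2, 5 and 6 and 11.08, 10.95 and 11.05 in wild type arrays 1B, 1C and 1D. Ednrb null was thus apart from both other groups, with its highest array below their lowest. The other probe sets showed the same separation. On 1426314_at the Ednrb null arrays read 6.67 to 6.80, against 8.22 to 8.46 in Ednrb NCC null and 8.19 to 8.69 in wild type arrays. On 1423594_a_at they read 6.25 to 6.71, against 7.74 to 8.65 in Ednrb NCC null and 7.91 to 8.27 in wild type arrays.

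Against wild type the difference in Ednrb null was -1.89 (SE 0.15, limma adjusted p = 2.88e-05) on 1437347_at. It was -1.62 (SE 0.13, adjusted p = 4.10e-05) on 1426314_at and -1.62 (SE 0.21, adjusted p = 0.0012) on 1423594_a_at. The intensity left on these probe sets was 27.0%, 32.6% and 32.5% of the wild type level, and their 95% intervals ran from 21.6% at the lowest to 45.0% at the highest. On 1426314_at and 1423594_a_at the Ednrb null means, 6.75 and 6.46, lay below the median level of all probe sets, 6.83. There RMA understates differences, so those percentages may be too high. Of single Ednrb null arrays, number 41 was the lowest on each probe set, at 21.0%, 30.9% and 28.1% of the wild type mean. Whether these probes lie in the part of the gene that the lacZ allele removes is not stated in the sources used here. Of all probe sets 5.03% were called in this comparison and 2.52% were called lower, and in 7.93% all Ednrb null arrays lay below all wild type arrays.

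Between the mutants, Ednrb null differed from Ednrb NCC null by -2.04 on 1437347_at, a level 4.10-fold higher in Ednrb NCC null (SE 0.15, adjusted p = 3.71e-05). The difference was -1.62 on 1426314_at and -1.83 on 1423594_a_at (adjusted p = 0.000113 and 0.00105). These were the 3 calls among the 12 endothelin probe sets, where 4.41% of all probe sets were called, 2.57% were called lower and 9.28% were lower without overlap.

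In Ednrb NCC null the Ednrb probe sets differed from wild type by 0.15, 0.00 and 0.21. The 95% intervals were -0.18 to 0.47, -0.29 to 0.30 and -0.26 to 0.68 (adjusted p = 0.696, 0.996 and 0.698), so a loss of more than 0.29 on the log2 scale lies outside all 3. Array 2 of this group was the lowest on 1423594_a_at, at 78.6% of the wild type mean, but stood at 109% on 1437347_at and 104% on 1426314_at. The same arrays had the low Ret level given above. In RNA of whole tissue this level does not by itself check the deletion in NCC cells, since other cells of the gut can carry Ednrb.

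Sox10, the transcription factor of neural crest and glia, averaged 7.13 ± 0.23 in Ednrb null colon and 7.52 ± 0.08 in Ednrb NCC null colon, against 9.12 ± 0.54 in wild type colon (log2, SD, n = 3 each). Against wild type it differed by -1.99 and -1.60 (adjusted p = 0.000325 and 0.0027), and the mutants differed by -0.39 (adjusted p = 0.42). Cdh5, an adhesion protein of vascular endothelium, averaged 9.62 ± 0.03, 9.47 ± 0.32 and 9.84 ± 0.18 in the same 3 groups. Of 10 endothelial markers limma called 0 in each comparison, with 2, 2 and 2 at an unadjusted p under 0.05. Against wild type, calls over all probe sets made up 5.03% (Ednrb null) and 3.58% (Ednrb NCC null), and between the mutants 4.41%. At such shares, 0 calls among 10 markers does not show that the endothelium was unchanged. The summed intensity of those 10 markers ranged from 5742 to 6191 in Ednrb null, 4983 to 6006 in Ednrb NCC null and 5166 to 6473 in wild type arrays, and its part in the Ednrb signal was not tested.

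**Figure D2:**
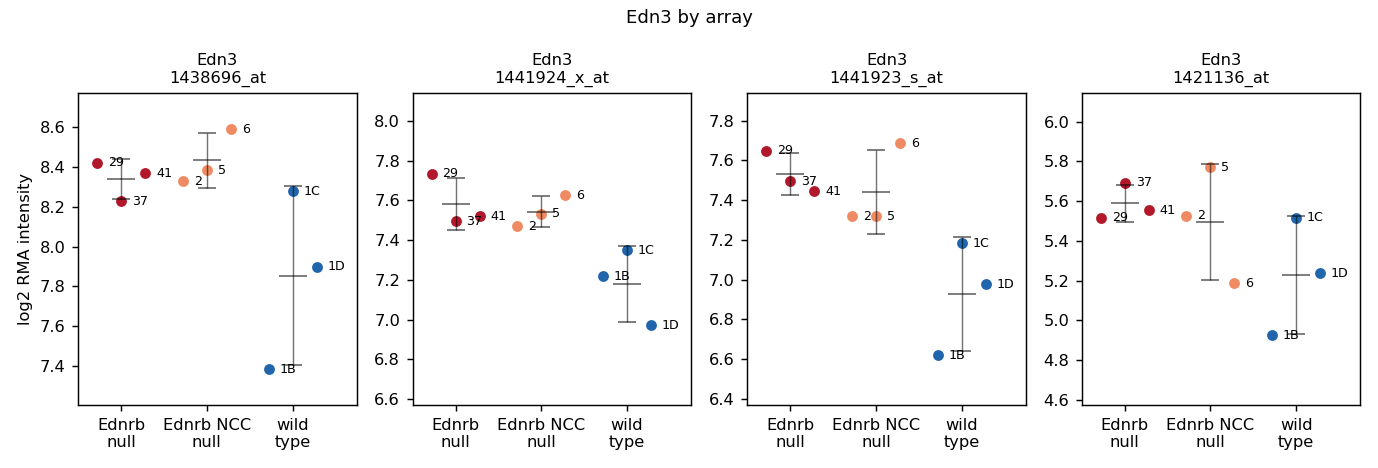
Log2 RMA intensity of the 4 Edn3 probe sets on each of 9 arrays (points, numbered as in the sample titles), with the mean and SD of each genotype as bars. Both mutants average higher than wild type in every panel, and wild type array 1B is the lowest of all in 3 panels.

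Edn3, the ligand of Ednrb, averaged higher in both mutants than in wild type on all 4 of its probe sets, but 1 of these 8 differences passed the threshold. The brightest, 1438696_at, read 8.42, 8.23 and 8.37 in Ednrb null arrays 29, 37 and 41. It read 8.33, 8.38 and 8.59 in Ednrb NCC null arrays 2, 5 and 6 and 7.38, 8.28 and 7.90 in wild type arrays 1B, 1C and 1D. The mutant arrays lay close together, and the wild type arrays spread over 0.90. Wild type 1C lay above Ednrb null 37 and below every Ednrb NCC null array. On 1441923_s_at the readings were 7.65, 7.50 and 7.45 in Ednrb null arrays, 7.32, 7.32 and 7.69 in Ednrb NCC null arrays, and 6.62, 7.18 and 6.98 in wild type arrays, with no overlap between either mutant and wild type.

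The Edn3 call was that of 1441923_s_at in Ednrb null, which rose by 0.60, or 1.52-fold (SE 0.15, limma adjusted p = 0.042), in a comparison where 2.51% of all probe sets were called higher. In the same comparison 1438696_at differed by 0.49 (adjusted p = 0.187), 1441924_x_at by 0.40 (adjusted p = 0.0705) and the dim 1421136_at by 0.36 (adjusted p = 0.294). In Ednrb NCC null the differences were 0.51 on 1441923_s_at, 0.58 on 1438696_at, 0.36 on 1441924_x_at and 0.27 on 1421136_at, with adjusted p = 0.0915, 0.12, 0.113 and 0.473. In both comparisons 3 of the 4 had an unadjusted p under 0.05, given as a description without the share of all probe sets that did so. The 2 comparisons share the wild type arrays, so their agreement is not independent. The arrays did not overlap for 2 of 4 probe sets in Ednrb null, where 12.7% of all probe sets were higher without overlap, and for 3 of 4 in Ednrb NCC null, where 11.6% were. Between the mutants the Edn3 probe sets differed by -0.09 to 0.09 (adjusted p from 0.833 to 0.909), with 95% intervals reaching from -0.50 to 0.46.

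In the name of a probe set, the suffix _s_at marks probes shared by several transcripts and _x_at marks probes that may bind other sequences, so 2 of the Edn3 probe sets may read more than this gene. As the mean of its 4 probe sets, Edn3 was 0.46 higher in Ednrb null (SE 0.12, adjusted p = 0.0475) and 0.43 higher in Ednrb NCC null (SE 0.12, adjusted p = 0.0618), with p-values adjusted over 18193 genes. The call of 1441923_s_at held in 8 of 17 alternative settings, among them an adjusted p under 0.10, where a call cannot be lost. It was lost without any 1 of Ednrb null 29, 37 and 41, Ednrb NCC null 2 and 5, and wild type 1B and 1D (adjusted p from 0.0551 to 0.156), with only the 2 groups compared (0.0684) and when the Actb ratio entered as a covariate (0.648). The difference was above 0 in all 17, at 0.399 with the Actb ratio and 0.45 to 0.732 without single arrays. Leaving out an Ednrb NCC null array, fitting only the 2 groups or changing the threshold could not move it, so its sign there was fixed in advance. The Ednrb null arrays do not overlap the others in the Actb ratio, so that fit cannot separate the ratio from genotype.

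**Figure D3:**
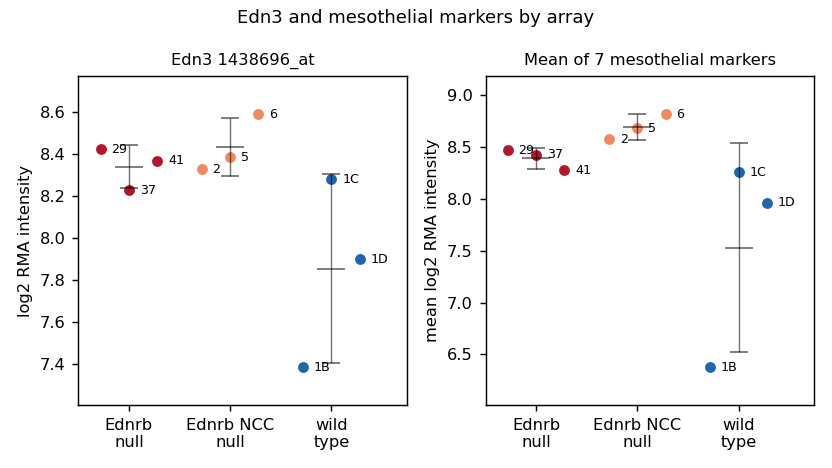
Left, log2 RMA intensity of Edn3 on its brightest probe set. Right, the mean log2 RMA intensity of 7 mesothelial markers. Points are the 9 arrays, numbered as in the sample titles, and bars give the mean and SD of each genotype. Wild type 1B is lowest and wild type 1D next in both panels.

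Leaving out a single wild type array moved the Edn3 difference in either direction. Without wild type 1B, 1438696_at differed by 0.25 in Ednrb null colon and 0.35 in Ednrb NCC null (adjusted p = 0.488 and 0.299). Without wild type 1C it rose by 0.70 and 0.79 (adjusted p = 0.0244 and 0.0241), and 1441924_x_at rose by 0.49 in Ednrb null (adjusted p = 0.0395). Markers of mesothelium, the cell layer that covers the gut, were also low in wild type 1B. All 7 of them were lowest there among the 9 arrays, and their summed intensity was 3086 to 3556 in Ednrb null and 3556 to 4109 in Ednrb NCC null arrays, against 761, 2847 and 2292 in wild type 1B, 1C and 1D. The part of this tissue difference in the Edn3 result was not tested.

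Against wild type, 5.03% of all probe sets were called in Ednrb null, with 2.51% called higher, and 3.58% were called in Ednrb NCC null. Of the 7 mesothelial markers limma called 0 in Ednrb null, with 4 at an unadjusted p under 0.05. In Ednrb NCC null 1 of these markers rose, and the medians were 0.64 and 0.99 in the 2 comparisons. Edn3 is a product of gut mesenchyme, and of 8 mesenchymal markers 0 were called in Ednrb null, with 1 at an unadjusted p under 0.05, and 1 fell in Ednrb NCC null, with medians of 0.00 and -0.15. Their summed intensity was 47250 to 51467 in Ednrb null, 42610 to 52595 in Ednrb NCC null and 51086 to 53261 in wild type arrays. Of 6 Hox genes of posterior position 1 rose in Ednrb null and 0 were called in Ednrb NCC null, where 1 had an unadjusted p under 0.05, with medians of 0.29 and -0.03.

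**Figure D4:**
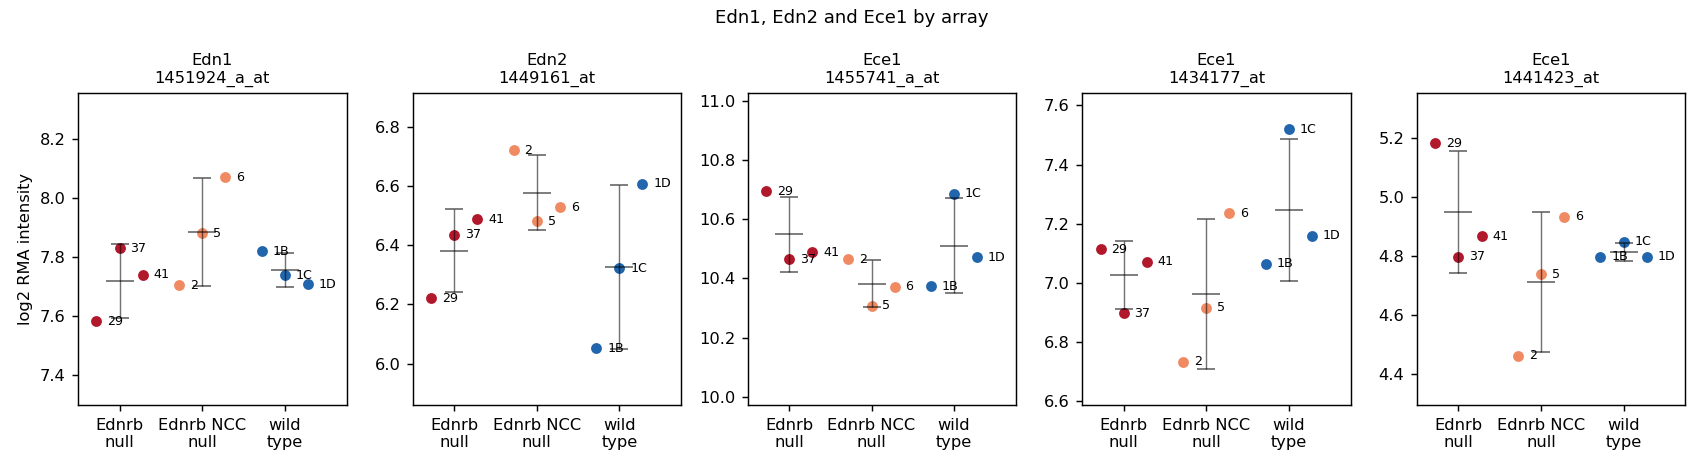
Log2 RMA intensity of the probe sets of Edn1, Edn2 and Ece1 on each of 9 arrays (points, numbered as in the sample titles), with the mean and SD of each genotype as bars. The genotypes overlap in every panel, though for Ece1 1455741_a_at the mutants meet only at a tied value.

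Edn1 and Edn2, the other ligands, did not pass the test in any comparison. Edn1, made by vascular endothelium and several epithelia, read 7.58, 7.83 and 7.74 in Ednrb null arrays, 7.71, 7.88 and 8.07 in Ednrb NCC null arrays and 7.82, 7.74 and 7.71 in wild type arrays. The genotypes overlapped, and the wild type arrays lay within 0.11 of each other. The difference from wild type was -0.04 in Ednrb null, with a 95% interval of -0.27 to 0.20 (adjusted p = 0.905), and 0.13 in Ednrb NCC null, with an interval of -0.11 to 0.37 (adjusted p = 0.626). Edn2, known from gut epithelium, read 6.22, 6.44 and 6.49 in Ednrb null arrays, 6.72, 6.48 and 6.53 in Ednrb NCC null arrays and 6.05, 6.32 and 6.61 in wild type arrays. It differed from wild type by 0.05 (interval -0.25 to 0.36, adjusted p = 0.894) and 0.25 (interval -0.05 to 0.55, adjusted p = 0.407). Edn2 lay below the median level of all probe sets, where RMA understates differences.

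Between the mutants, Edn1 differed by -0.17 (interval -0.40 to 0.07) and Edn2 by -0.20 (interval -0.50 to 0.11), with adjusted p = 0.493 and 0.541. Neither passed the threshold, whereas markers of gut epithelium differed between these groups. The summed intensity of 11 epithelial markers was 25215 to 34558 in Ednrb null, 39799 to 46328 in Ednrb NCC null and 32011 to 33781 in wild type arrays. Between the mutants 7 of the 11 fell in Ednrb null, where 2.57% of all probe sets were called lower, and the part of this in the ligand levels was not tested.

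Ece1, the converting enzyme, was read by 3 probe sets and none was called. Its brightest, 1455741_a_at, read 10.69, 10.47 and 10.49 in Ednrb null arrays, 10.47, 10.31 and 10.37 in Ednrb NCC null arrays and 10.37, 10.69 and 10.47 in wild type arrays. Each mutant overlapped wild type, while the mutants met only at 10.47, the lowest Ednrb null and the highest Ednrb NCC null reading. The difference from wild type was 0.04 in Ednrb null (interval -0.19 to 0.27, adjusted p = 0.9) and -0.13 in Ednrb NCC null (interval -0.36 to 0.10, adjusted p = 0.612). That between the mutants was 0.17 (interval -0.06 to 0.40, adjusted p = 0.477). The other probe sets, 1434177_at and the dim 1441423_at, differed from wild type by -0.22 and 0.13 in Ednrb null and by -0.29 and -0.10 in Ednrb NCC null (adjusted p from 0.37 to 0.775).

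**Figure D5:**
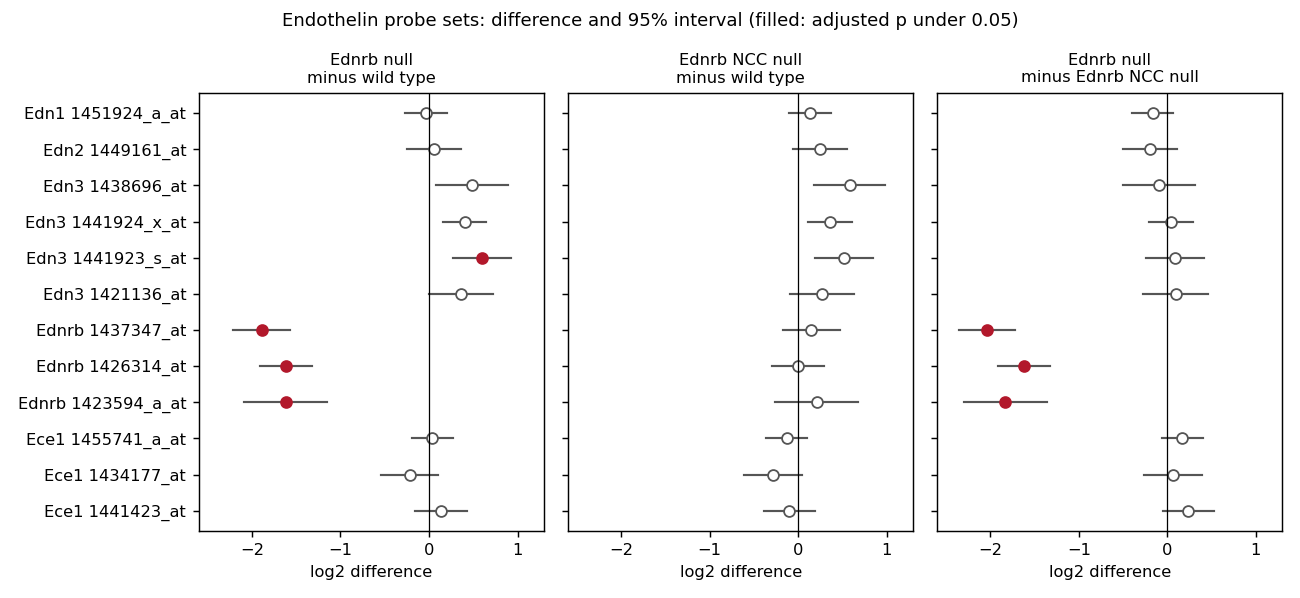
Log2 difference of each of the 12 endothelin probe sets in 3 comparisons, named above the panels, with limma 95% intervals as lines. Filled points have an adjusted p under 0.05: the 3 Ednrb probe sets and Edn3 1441923_s_at in Ednrb null against wild type, none in Ednrb NCC null against wild type, and the 3 Ednrb probe sets between the mutants.

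By comparison, 4 of 12 endothelin probe sets were called in Ednrb null against wild type, where 5.03% of all probe sets were called. The 3 falls were the 3 probe sets of Ednrb, the gene that this genotype targets, so they are not separate results. Of the 9 probe sets of the ligands and Ece1, 1 was called, a rise. In Ednrb NCC null against wild type limma called 0 of 12, where 3.58% of all probe sets were called, and 3 of 12 had an unadjusted p under 0.05, all of Edn3. The median over the 12 was 0.05, 0.18 and -0.03 in the comparisons as plotted from left to right, and 0.03, 0.01 and 0.02 over all probe sets. Within groups, Edn1 and the brightest Ece1 probe set had a pooled SD of 0.13 and 0.13, equal to the median over all probe sets. The brightest Edn3 probe set had 0.28 and Ednrb 1423594_a_at 0.33, above 94.2% and 96.9% of probe sets in the spread of replicate arrays.

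Other genes of the pathway were taken from 4 lists, of which 43 of 48 genes were measured, each counted by its brightest probe set. In Ednrb null 2 fell and 0 rose, or 4.65% of them, where 5.03% of all probe sets were called and 2.52% were called lower. In Ednrb NCC null 1 fell and 0 rose (2.33%, with a background of 3.58% called and 1.51% called lower). Between the mutants 1 fell (2.33%, with a background of 4.41% called and 2.57% called lower). The median difference was -0.07, -0.06 and 0.01, beside 0.03, 0.01 and 0.02 over all probe sets.

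On their brightest probe sets the called genes were Prkca and Arrb1. Prkca, a protein kinase C that acts downstream of calcium-mobilising receptors, read 8.70, 8.63 and 8.59 in Ednrb null arrays, 9.07, 9.21 and 9.39 in Ednrb NCC null arrays and 9.17, 9.13 and 9.00 in wild type arrays. All Ednrb null arrays were below the rest. It fell by 0.47 against wild type (SE 0.10, adjusted p = 0.0203) and by 0.59 against Ednrb NCC null (SE 0.10, adjusted p = 0.00763), and its probe set 1450945_at gave -0.25 and -0.60 (adjusted p = 0.364 and 0.0261). The dim Prkca probe set 1427562_a_at gave 0.14 and -0.17 (adjusted p = 0.66 and 0.621). Arrb1, a beta-arrestin that uncouples G protein-coupled receptors, read 7.91, 7.89 and 7.89 in Ednrb null arrays, 7.78, 7.70 and 7.64 in Ednrb NCC null arrays and 8.23, 8.21 and 8.33 in wild type arrays. Both mutants lay below wild type without overlap. Arrb1 fell by 0.36 in Ednrb null (SE 0.08, adjusted p = 0.0228) and by 0.55 in Ednrb NCC null (SE 0.08, adjusted p = 0.00349).

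Leaving out single arrays ended some of these calls. In Ednrb null against wild type, Prkca lost its call without Ednrb null 29, 37 or 41 or wild type 1B or 1C, with differences of -0.49 to -0.43, and Arrb1 without Ednrb null 29, 37 or 41 or wild type 1B or 1D, with differences of -0.38 to -0.33. The difference of Arrb1 in Ednrb NCC null passed in all 17 alternatives run with that probe set, at -0.59 to -0.52. When the Actb ratio entered the fit, Prkca lost its call against wild type and against Ednrb NCC null (adjusted p = 0.243 and 0.151) at differences of -0.51 and -0.64, and Arrb1 lost its call in Ednrb null against wild type (adjusted p = 0.43) at -0.32. Since the Ednrb null arrays do not overlap the others in this ratio, that fit cannot separate it from genotype.

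Among the 9 genes that process or break down endothelins limma called 0 in each comparison, and 3, 0 and 2 had an unadjusted p under 0.05. Furin, a protease of the first cut, differed by -0.20 in Ednrb null colon and -0.08 in Ednrb NCC null against wild type (adjusted p = 0.353 and 0.782). Ece2, a relative of Ece1, differed by -0.09 and 0.04 (adjusted p = 0.715 and 0.889). Kel, the Kell protease that can activate Edn3, differed by 0.25 and 0.04 (adjusted p = 0.143 and 0.884). Mme, the endothelin-degrading neprilysin, differed by -0.70 and -0.36 (adjusted p = 0.458 and 0.757). Its arrays spread widely, at 7.47 to 8.72 in Ednrb null, 8.14 to 8.84 in Ednrb NCC null and 7.89 to 9.68 in wild type.

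By brightest probe set, Prkca was the 1 call among 22 measured G protein and calcium signalling genes (4.55%) in Ednrb null against wild type, where 5.03% of all probe sets were called, and between the mutants, where 4.41% were. Arrb1 was the 1 call among 10 desensitisation genes (10%) in either mutant against wild type, where 5.03% of all probe sets were called for Ednrb null and 3.58% for Ednrb NCC null.

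Dimmer probe sets of 2 other genes in these lists were also called, and for both genes they differed from the brightest one. Rgs5, a regulator of G protein signalling known from pericytes, rose on 1420941_at by 2.17 in Ednrb null and by 1.95 in Ednrb NCC null (adjusted p = 1.4e-05 and 8.6e-05). On 1420940_x_at it fell by 1.71 in Ednrb null (adjusted p = 0.00017), and the difference in Ednrb NCC null was -1.44 (adjusted p = 0.0012). Its brightest probe set, 1417466_at, differed by -0.08 and -0.34 (adjusted p = 0.828 and 0.222), and 1420942_s_at by 0.55 and -0.06 (adjusted p = 0.112 and 0.907). Rgs5 therefore has no single direction on these arrays. Gnai2, the alpha subunit of an inhibitory G protein, fell by 0.50 on 1419449_a_at in Ednrb null (adjusted p = 0.0238), while its brightest probe set differed by -0.13 (adjusted p = 0.537).

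Gnaq and Gna11, the alpha subunits that couple endothelin receptors to phospholipase C, differed by -0.09 and -0.07 in Ednrb null and by -0.10 and 0.11 in Ednrb NCC null (adjusted p from 0.707 to 0.829). Rgs2, which shortens signalling of these subunits, was 0.47 higher in Ednrb NCC null (adjusted p = 0.0581) and 0.14 higher in Ednrb null (adjusted p = 0.632). The receptor relatives Gpr37 and Gpr37l1 were not called in any comparison.

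The genes whose levels followed each endothelin gene most closely over the 9 arrays were taken from 11648 genes at or above the median level, with Pearson's r as a description. For Ednrb they were Esco1, a cohesin acetyltransferase (r = 0.980), the RNA-binding protein gene Taf15 (0.978), 2610507I01Rik (0.974), the sulfatase gene Arsk (0.971) and the serine protease gene Htra3 (0.968). The Ednrb null arrays stand apart for Ednrb, so these values reflect that group difference: in Ednrb null against wild type Esco1 fell by 1.41, Taf15 fell by 2.57, 2610507I01Rik fell by 1.58, Arsk fell by 1.90 and Htra3 fell by 0.79.

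For Edn3 the closest were Podxl, which encodes the surface sialomucin podocalyxin (r = 0.960), Sgo1, a protector of sister chromatid cohesion (0.958), and Mid1ip1 (0.951). Podxl differed from wild type by 0.70 in Ednrb null colon and 0.81 in Ednrb NCC null (adjusted p = 0.293 and 0.222). For Edn1 they were Phlda2 (0.922), 9030622O22Rik (0.893) and Chpf2 (0.891), and for Ece1 Dna2 (0.982), Gjc1 (0.968) and Tanc1 (0.962). For Edn2, taken from 11649 genes, they were Ciao2b (0.966), Lst1 (0.966) and Serf2 (0.945). All of these pairs share the same 9 libraries.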

How the data were processed

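For each probe set on each array the authors deposited an intensity. RMA is the tool that the submitters' processing notes name, without a version. Per the labels' protocols, labelled cRNA was prepared from 150 ng of RNA. RMA corrects background, equalises the arrays and combines probes, and it pulls dim differences toward 0. The deposited intensities were linear, from 5.69 to 61637, and log2 was taken with no pseudocount. Precision is limited by the number of arrays.

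After 64 control probe sets were left out, 45037 were fitted with limma 3.58.1 in R 4.3.3 (lmFit and eBayes, a mean per genotype, all 9 arrays). Tests were 2-sided, with the Benjamini-Hochberg adjustment taken over all probe sets of a comparison and calls made at an adjusted p under 0.05. Counts at an unadjusted p under 0.05 are descriptions, since the share of all probe sets at that level was not taken. Columns of all samples were mapped by accession. For pathway and marker genes the brightest of the probe sets naming that gene alone was used. Of each pathway list, up to 4 called genes per comparison with the smallest p were to be named, and others named were chosen after their values were seen. The fit was tested on simulated data. The members and lists were chosen with earlier results of these data known. Promoter sequences and gene names are those of RefSeq, GRCm38.p6.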

Additional observations from a re-analysis of the deposited data

How the results depend on the processing

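The Ednrb difference kept its side of the threshold in 19 of 19 alternatives in each comparison, at -2.02 to -1.71 for Ednrb null against wild type, 0.07 to 0.21 for Ednrb NCC null against the wild type, and -2.18 to -1.83 between the mutants. Leaving out single arrays gave -2.02 to -1.71, 0.07 to 0.21 and -2.17 to -1.85. For the called differences, the alternative of an adjusted p under 0.10 could not have ended the call. With 1 probe set or the mean of all probe sets per gene, only 5 members were tested, of which 1 and 2 were called in Ednrb null against wild type and 1 and 1 between the mutants. Without single arrays the members called numbered 3 to 6, 0 to 1 and 3 to 3 in the order above, and 1 in Ednrb NCC null against wild type at an adjusted p under 0.10.

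Pathway genes called in Ednrb null against wild type were 1 with gene means and 0 when the Actb ratio was a covariate, and 0 to 2 without single arrays. In Ednrb NCC null against wild type they were 2 without the dimmest 40%, with 1 probe set per gene, gene means, trend and robust eBayes, array weights or an adjusted p under 0.10, and 1 to 2 without single arrays. Between the mutants they were 2 with gene means, only the 2 groups compared or array weights, 0 with the Actb ratio, and 1 to 2 without single arrays. Over the whole array 2265 probe sets were called in Ednrb null against wild type, with 917 for 1 probe set per gene, 982 for gene means, 539 with the Actb ratio and 1330 to 2358 without single arrays. For Ednrb NCC null against wild type 1611 were called, with 902, 932, 1042 for only the 2 groups compared, 2871 at an adjusted p under 0.10 and 716 to 1971 without single arrays. Between the mutants 1984 were called, with 1187, 1216, 3709 with array weights, 283 with the Actb ratio, 3164 at an adjusted p under 0.10 and 866 to 2061 without single arrays. Fewer features were tested in the per-gene settings. In comparisons of Ednrb null the Actb ratio cannot be told apart from genotype. For the other settings the cause was not tested.

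Some differences that were not called changed sign. With the Actb ratio these were Ece1 1434177_at (-0.168), Edn3 1421136_at (-0.315) and Edn3 1441923_s_at (-0.136) between the mutants, Edn3 1421136_at (-0.007) in Ednrb null against wild type and Ednrb 1426314_at (-0.003) in Ednrb NCC null. Quantile normalization turned Ece1 1455741_a_at in Ednrb null (-0.014), and gene means turned Ece1 there (-0.016) and Edn3 between the mutants (0.032). Without single arrays the values that turned lay at -0.034 to 0.127 for Ece1 1455741_a_at, -0.095 to 0.029 for Edn1 and -0.083 to 0.194 for Edn2 in Ednrb null against wild type. They lay at -0.213 to 0.022 for Ece1 1441423_at and -0.084 to 0.168 for Ednrb 1426314_at in Ednrb NCC null against wild type. Between the mutants they lay at -0.049 to 0.203 for Ece1 1434177_at, -0.062 to 0.231 for Edn3 1421136_at and -0.035 to 0.085 for Edn3 1441924_x_at. No paired analysis was possible because the labels give no litter or pairing.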
